A study of Mus musculus with 25 samples.

Results

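The colon of mice labelled Card9-/- was compared at day 12, after recovery from a chemical colitis, with the same tissue at day 7, when the injury ended. The groups were chosen by the array titles, which gave 5 arrays at day 12 and 4 at day 7, that is 9 of the 25 arrays of the series. All mice were female, 8 weeks old and of the C57Bl/6j strain, and the mice of both days were labelled Card9-/-. Day 12 mice had drunk 2% (w/v) dextran sulfate sodium (DSS) for 7 days and then plain water for 5 days. Day 7 mice had drunk DSS for 7 days and were taken at its end. Day 0 mice were taken before DSS (3 arrays labelled Card9-/-), and wild type (WT) mice of the same ages and treatments were measured beside them (5 arrays at day 12, 5 at day 7 and 3 at day 0). Each array held the RNA of 1 colon. Of the 5 Card9-/- mice that the design text names at day 7, 4 were analysed.

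DSS damages the lining of the colon, so that gut bacteria reach the tissue below and neutrophils, monocytes and lymphocytes enter it. After DSS is withdrawn, inflammation subsides while the crypts, the pits that hold the epithelial stem cells, rebuild the absorptive cells and the mucus-making goblet cells. CARD9 is an adaptor protein of myeloid cells. It carries signals from C-type lectin receptors, which sense fungal cell walls, through BCL10 and MALT1 to NF-κB and so to cytokine genes.

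Levels below are log2 signals relative to the 75th percentile of the same array, so a level of 0 equals that percentile and a difference of 1 is a 2-fold change. A difference is day 12 minus day 7 with the standard error (SE) of the limma fit, and a gene was called, or said to rise or fall, where its Benjamini-Hochberg adjusted p over the 25464 genes tested was under 0.05. Levels of different probes are not compared with each other. Since whole colon was measured, fewer cells of a type and less RNA per cell cannot be told apart.

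The Card9 probe (chromosome 2, positions 26208462 to 26208521, mm9) was read first, as a check of the labels. It gave -0.82, -0.72, -1.35, -0.80 and -0.996 at day 12, against -0.53, -0.70, -0.62 and -0.48 at day 7, in the arrays labelled Card9-/-. The day 0 arrays with the same label averaged -1.20. In the arrays labelled WT its mean was -6.06 at day 0, -5.43 at day 7 and -5.74 at day 12. The probe was thus brighter in the arrays labelled as lacking the gene, which goes against the labels. The sources used here do not say what the allele lacks, so the probe does not settle the genotype. Genotype names below are the labels of the arrays. Between day 12 and day 7 the probe differed by -0.36 ± 0.55 (adjusted p = 0.78) and was not called. Its values at the 2 days did not overlap and it was lower at day 12 on all 4 slides, and with only the 9 arrays in the fit the difference was -0.36 ± 0.15 (adjusted p = 0.223).

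The labelled tissue was seen in every array, since all 12 colon identity genes, among them the intestinal transcription factor Cdx1, were well above background on each of the 9 arrays. RNA of other tissues was present in some of them. The mean level of 19 pancreatic acinar genes, which encode digestive enzymes, lay 10.96 above the Card9-/- day 0 mean in day 12 replicate 1, and between -0.23 and 1.49 in the other day 12 arrays. It lay 11.62 and 12.05 above it in day 7 replicates 2 and 3, and at -0.53 and 0.01 in replicates 1 and 4. All 19 acinar genes were well above background on each of those 3 arrays and 9 to 15 of them on the other 6. The 8 red blood cell genes lay between -0.86 and 3.81 above the day 0 mean at day 12, and between 2.50 and 5.33 at day 7. The 75th percentile itself was 196 intensity units in day 12 replicate 1, and 289 and 205 in day 7 replicates 2 and 3, against 485 to 661 on the other 6 arrays. Both days were on each of the 4 slides. The 3 Card9-/- day 0 arrays differed among themselves in Hox genes, which mark position along the colon. Their means of 6 proximal colon Hox genes ran from -1.63 to 1.51, against -2.20 to -1.50 at day 12 and -1.74 to -1.14 at day 7. Hoxb13, of the distal list, was at 1.52, 3.24 and 6.95 at day 0, with means of 6.74 at day 12 and 6.31 at day 7. The part of this in the day 0 levels given below was not tested.

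**Figure D1:**
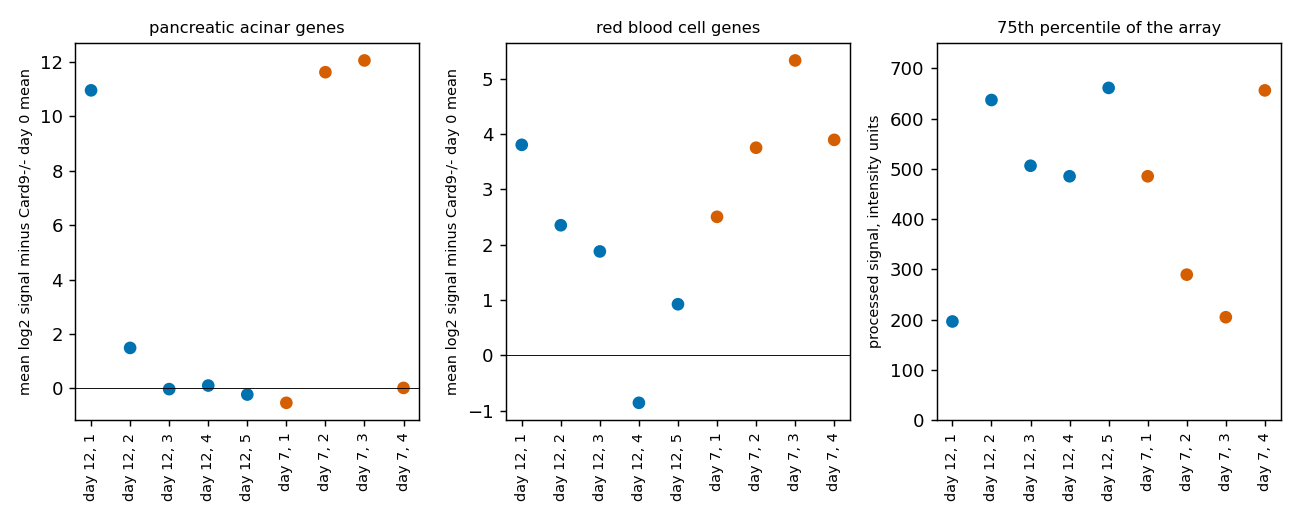
Each point is 1 array labelled Card9-/-, day 12 in blue and day 7 in orange, with the replicate number on the x axis. The left and middle panels plot the mean log2 signal of 19 pancreatic acinar genes and 8 red blood cell genes minus the Card9-/- day 0 mean, and the right panel plots the 75th percentile of the processed signal in intensity units. Day 12 replicate 1 and day 7 replicates 2 and 3 stand apart with acinar means of 10.96, 11.62 and 12.05 and the 3 lowest percentiles.

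Inflammatory and interferon response genes were among the falls at day 12 relative to day 7, and goblet cell and colonocyte transport genes were among the rises. At day 12, 1960 of 25464 genes were called against day 7, or 7.7% of those tested. Of these, 1458 were higher at day 12 (5.73% of all genes tested) and 502 were lower (1.97%). The falls were the larger changes, since 333 of the 502 were at least 2-fold and 128 of the 1458 rises were. The median log2 difference over all genes tested was 0.02. Of the 1458 rises 1393 had the same sign on all 4 slides, and of the 502 falls 477 did, beside 29.3% of all genes tested, and these genes were called on the same arrays. The values of the 2 days did not overlap for 1141 of the rises and 390 of the falls, beside 11.3% of all genes tested. Without the 3 arrays that held pancreatic transcripts, which leaves 4 arrays against 2, 247 genes were called (203 up and 44 down), and none of the 1960 differences changed sign. With only the 9 arrays in the fit, 685 genes were called, of which 43.6% rose, against 74.4% here.

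**Figure D2:**
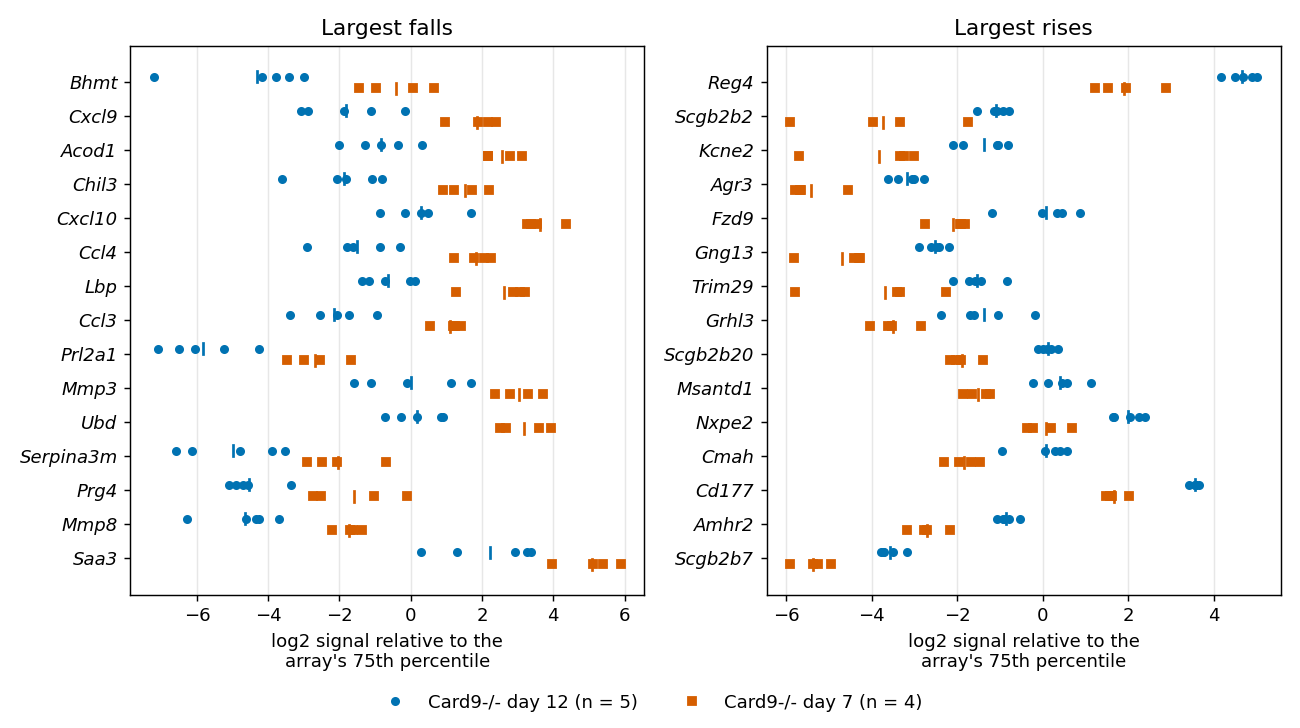
Each point is 1 array labelled Card9-/-, with day 12 (blue circles, n = 5) drawn above day 7 (orange squares, n = 4) and short vertical lines at the means. The x axis is the level, on the log2 scale relative to each array's 75th percentile, of the 15 largest falls and the 15 largest rises, chosen among called genes whose values do not overlap, so Reg4 lies between 4.16 and 5.01 at day 12 and between 1.21 and 2.87 at day 7.

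The largest rise was that of Reg4, a secreted lectin of colon secretory cells (probe on chromosome 3, positions 98037005 to 98040251, mm9). Its level was 4.68, 5.01, 4.49, 4.16 and 4.88 at day 12, against 2.87, 1.94, 1.53 and 1.21 at day 7. Every day 12 array was above every day 7 array, which the choice of the largest rises required. The difference was 2.76 ± 0.59 on the log2 scale or 6.76-fold (adjusted p = 0.00852). The day 0 arrays were spread, at 1.70, 1.07 and 4.33 (mean 2.37), and the highest of them was above day 12 replicate 4. Kcne2, a potassium channel subunit, was at -1.05, -2.10, -1.88, -1.07 and -0.82 at day 12, against -3.25, -2.999, -5.69 and -3.34 at day 7 (difference 2.44 ± 0.44, adjusted p = 0.00326). Its day 12 mean of -1.38 equalled the day 0 mean of -1.38. Fzd9, a Wnt receptor, rose by 2.19 ± 0.45 and Gng13, a G protein gamma subunit, by 2.17 ± 0.43. Cmah, the enzyme that makes the sialic acid Neu5Gc, rose by 1.92 ± 0.41, and Amhr2, the receptor of anti-Müllerian hormone, by 1.86 ± 0.26.

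Grhl3, a transcription factor of epidermal barrier and wound repair, was at -1.60, -0.18, -1.70, -2.37 and -1.05 at day 12, against -2.84, -3.61, -3.52 and -4.03 at day 7 (difference 2.12 ± 0.41, adjusted p = 0.00488). Its day 0 mean was -5.18, lower than at either day. Trim29, a tripartite motif protein of keratinocytes, rose by 2.16 ± 0.48, and its day 12 mean of -1.54 was also above the day 0 mean of -3.65. In the list of 17 tested squamous epithelium and cornified envelope genes, 1 rose, the keratin gene Krt17 (1.63 ± 0.45, adjusted p = 0.0294), beside 5.73% of all genes tested. Of the 17, 5 were higher and 12 lower at day 12, with a median of -0.12.

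Scgb2b20, a secretoglobin gene, which encodes a small secreted protein, was at 0.36, 0.00, -0.11, 0.10 and 0.20 at day 12, against -1.41, -2.03, -2.17 and -1.91 at day 7. Scgb2b2 rose by 2.63 ± 0.76 (adjusted p = 0.0363), but its day 7 arrays were spread from -5.90 to -1.74, and without the arrays with pancreatic transcripts its difference was 1.40. Scgb2b7 and Agr3, a disulfide isomerase family member of secretory epithelium, were not well above background on any day 7 array, and were higher at day 12 by at least 1.69-fold and at least 2.19-fold. Their place among the 15 largest rises rests on the fitted difference, which is no bound. The other rises of this size were Msantd1 (1.93 ± 0.32) and Nxpe2 (1.93 ± 0.42). The secretoglobin, Serpina3, Ifit, Gbp, Mcpt and globin families hold near-identical copies, and a probe may read more than 1 of them.

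Among the 15 largest falls were 5 chemokine or lipopolysaccharide-response genes. The chemokine Cxcl9, a T cell attractant (probe on chromosome 5, positions 92752191 to 92752250, mm9), was at -0.18, -2.89, -1.88, -1.12 and -3.07 at day 12, against 1.88, 2.40, 0.97 and 2.18 at day 7. The difference was -3.68 ± 0.91, which is 12.8-fold lower at day 12 (adjusted p = 0.0179). Cxcl10, which binds the same receptor, was at 1.68, -0.16, 0.28, 0.48 and -0.85 at day 12, against 3.53, 4.35, 3.38 and 3.27 at day 7 (10.2-fold lower, adjusted p = 0.017). For both genes day 12 replicate 1, an array with pancreatic transcripts, was the highest day 12 array. Ccl4 and Ccl3, attractants of monocytes and T cells, fell by 3.33 ± 0.68 and 3.23 ± 0.68. Lbp, which binds bacterial lipopolysaccharide, was at -1.19, 0.12, -0.01, -1.36 and -0.73 at day 12, against 1.26, 3.22, 3.08 and 2.87 at day 7 (9.43-fold lower, adjusted p = 0.00163).

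The other large falls included macrophage and matrix protease genes. Acod1, which makes itaconate in activated macrophages, was at -0.36, -1.29, 0.30, -0.83 and -2.00 at day 12, against 2.16, 3.12, 2.18 and 2.78 at day 7. Its mean of -0.84 at day 12 was still far above the day 0 mean of -5.66. Chil3, a chitinase-like lectin of macrophages, fell by 3.39 ± 0.79, and its means were -5.83 at day 0, 1.51 at day 7 and -1.88 at day 12. The matrix metalloproteinases Mmp3 and Mmp8 fell by 3.04 ± 0.81 and 2.91 ± 0.73, Ubd, a ubiquitin-like protein induced by inflammatory cytokines, by 2.99 ± 0.65, and the acute phase gene Saa3 by 2.86 ± 0.77. The remaining members were Bhmt, a methyltransferase that uses betaine (-3.89 ± 0.92), Prl2a1 of the prolactin family (-3.15 ± 0.56), the protease inhibitor Serpina3m (-2.95 ± 0.69) and Prg4, which encodes lubricin (-2.93 ± 0.59). These 30 rises and falls were chosen without overlap between days, so leaving out arrays could not change their sign. Without the arrays with pancreatic transcripts they were at 53% to 116% of their size. Only 4 of the 30 were then called, the rises of Kcne2, Msantd1, Cd177 and Amhr2.

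Genes induced by interferon fell together. Of 34 listed interferon response genes all were tested, 27 fell (background 1.97%), none rose, and all 34 were lower at day 12, with a median of -1.53 beside 0.02 over all genes tested. These genes are switched on by interferons and act against viruses and intracellular bacteria. Ifit1, which binds foreign RNA (probe on chromosome 19, positions 34723796 to 34723855, mm9), was at -0.90, -1.41, -1.40, -0.56 and -0.81 at day 12, against 0.59, 0.61, 0.11 and 0.49 at day 7. The days were fully apart, with a difference of -1.47 ± 0.25 (adjusted p = 0.0021). Ifit3, its partner, was at -0.42, -0.85, -1.54, -0.58 and -1.13 at day 12, against 0.72, 0.81, 0.54 and 0.57 at day 7 (-1.56 ± 0.26, adjusted p = 0.00208). Zbp1, a sensor of nucleic acid that triggers cell death, was at 3.11, 2.01, 1.79, 2.08 and 1.82 at day 12, against 3.52, 4.48, 4.11 and 4.03 at day 7 (-1.88 ± 0.33, adjusted p = 0.00297). Mx2, a dynamin-like antiviral GTPase, fell by 1.78 ± 0.31.

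The mean of the 34 interferon genes was 0.36 ± 0.57 at day 0 (SD, n = 3), 1.83 ± 0.43 at day 7 (n = 4) and 0.26 ± 0.35 at day 12 (n = 5), so that the day 12 arrays lay within the range of day 0. On slides 1 to 4 this mean differed between day 12 and day 7 by -2.53, -1.17, -0.62 and -1.79. Without the arrays with pancreatic transcripts, 33 of the 34 genes were lower, the median was -1.58 and 4 were called, with adjusted p between 0.0386 and 0.201 for the 27. Leaving out day 7 replicate 2, the array with the highest interferon mean, left 12 called. Of the 19 T cell genes tested, the interferon gamma gene itself, Ifng, fell by 3.47 ± 0.99 (adjusted p = 0.036), although its days overlapped and it was well above background on only 2 of 5 day 12 arrays, beside 4 of 4 at day 7.

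The promoters of 3 of these genes are shown because the interferon-stimulated response element, a regulatory sequence of interferon-induced genes, could be read in them. Each line gives the 250 bases before the annotated start, 5′ to 3′ on the gene's strand, with matches to the core in capitals, which is GAAA, any 2 bases and GAAA again, or on the other strand TTTC, any 2 bases and TTTC. The sequences are from RefSeq (GRCm38.p6), at chr19:34640639-34640888 (plus strand) for Ifit1, chr19:34583279-34583528 (plus strand) for Ifit3 and chr5:92348890-92349139 (minus strand) for Cxcl10.
Ifit1: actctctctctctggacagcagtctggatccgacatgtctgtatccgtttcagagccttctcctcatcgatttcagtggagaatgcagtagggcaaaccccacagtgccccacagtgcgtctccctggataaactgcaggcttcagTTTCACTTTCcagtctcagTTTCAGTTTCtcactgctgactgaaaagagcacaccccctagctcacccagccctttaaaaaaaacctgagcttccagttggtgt
Ifit3: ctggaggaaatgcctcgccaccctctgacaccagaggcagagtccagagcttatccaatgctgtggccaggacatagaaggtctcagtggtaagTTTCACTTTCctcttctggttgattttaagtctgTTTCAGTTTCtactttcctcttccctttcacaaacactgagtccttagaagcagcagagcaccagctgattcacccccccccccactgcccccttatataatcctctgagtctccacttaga
Cxcl10: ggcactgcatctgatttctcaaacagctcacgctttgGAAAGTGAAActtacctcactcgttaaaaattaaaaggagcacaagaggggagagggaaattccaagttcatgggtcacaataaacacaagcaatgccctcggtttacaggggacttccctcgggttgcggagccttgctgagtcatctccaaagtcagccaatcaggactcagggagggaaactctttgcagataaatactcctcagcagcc
In Ifit1 the matches began 104 and 85 bases before the start, in Ifit3 156 and 122, and in Cxcl10 213. Of the 34 interferon genes 25 were in the promoter table, and 14 of them (56%) held the core in this window, beside 936 of 27025 genes (3.46%). Of the 20 called genes in the table, 11 held it. A match is a description of the letters only.

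In the arrays labelled WT none of these genes passed the test over the same days. The median difference of the 34 genes was 0.09, beside 0.01 over all genes, with 0 called by limma (background 0.487%, or 124 genes) and 4 at an unadjusted p under 0.05. Their mean in WT was 0.17 ± 0.18 at day 0 (SD, n = 3), 1.36 ± 0.81 at day 7 (n = 5) and 1.42 ± 0.24 at day 12 (n = 5). The WT day 7 arrays ranged from 0.14 to 2.42, wide enough to cover the Card9-/- day 7 range of 1.39 to 2.40. For each gene the Card9-/- difference minus the WT difference was tested in the same fit. It was negative for all 34 genes, with a median of -1.90, and 29 had an unadjusted p under 0.05 (85.3%, beside 7.71% of all genes tested). These genes were measured on the same arrays, so they are not independent of each other. Such a share was not particular to this list, since 7 of 8 red blood cell genes had such a p (87.5%, median -2.59). After adjustment over all genes 2 genes of the whole table were called (0.00785%), Ifit1 and Oasl1.

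For Ifit1 the 2 differences were -1.47 ± 0.25 in the arrays labelled Card9-/- and 0.79 ± 0.23 in WT, so that they differed by -2.26 ± 0.34 (adjusted p = 0.0202). Oasl1, an inhibitor of interferon production in mice that is not in the list (probe on chromosome 5, positions 115387861 to 115387920, mm9), was at 3.61, 3.52, 3.53, 3.59 and 3.87 at day 12, against 3.72, 4.08, 3.64 and 3.80 at day 7. These overlap, and the difference of -0.19 ± 0.14 was not called. In WT its mean was 4.50 at day 12 and 3.39 at day 7, a rise of 1.11 ± 0.13 (adjusted p = 0.00116), and the differences differed by -1.29 ± 0.19 (adjusted p = 0.0202). Neither gene was called in this test with normexp background correction, with quantile normalization, with the replicate number as a block, without the arrays with pancreatic transcripts, or without day 12 replicate 2 or 3 or day 7 replicate 1, 2 or 4.

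**Figure D3:**
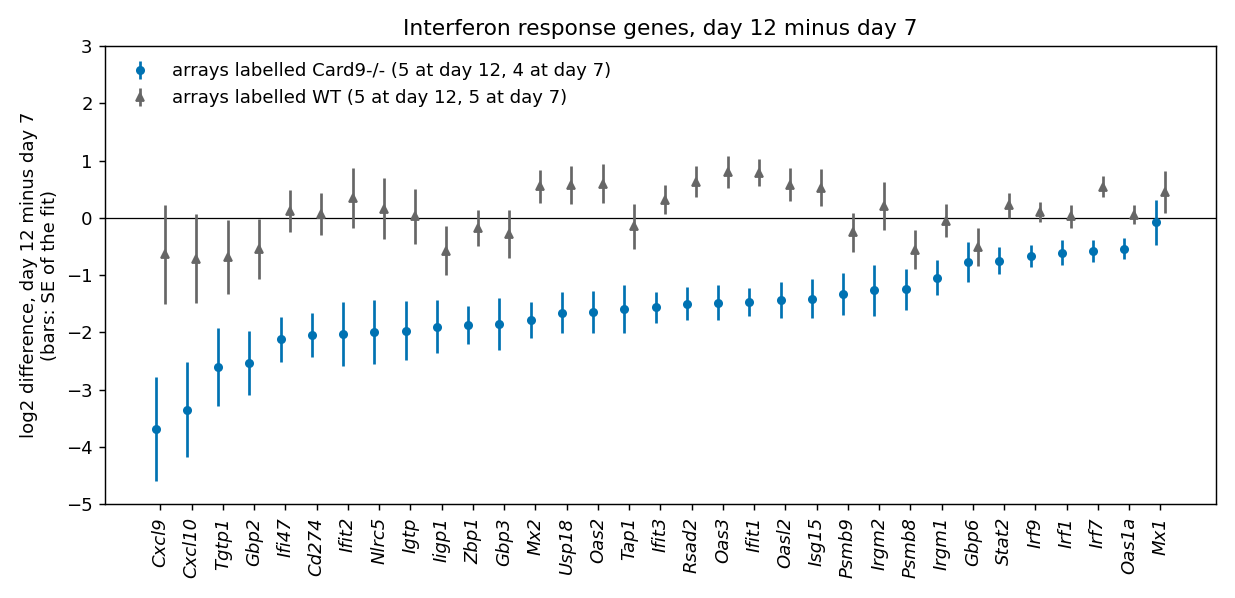
For 33 of the 34 interferon response genes the y axis is the log2 difference, day 12 minus day 7, with the SE of the fit, in the arrays labelled Card9-/- (blue circles) and WT (grey triangles). The blue points run from -3.68 for Cxcl9 to -0.07 for Mx1, all below 0, and the grey points lie on both sides of 0.

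Innate inflammatory genes fell but stayed above the level before DSS. Of 24 listed neutrophil genes 23 passed the filter on dim probes, 7 fell (background 1.97%) and 1 rose (background 5.73%), with a median of -2.00. Ltf, the lactoferrin of neutrophil granules, was at -1.96, -1.59, -1.78, -2.73 and -3.25 at day 12, against -0.29, 1.63, -0.33 and 0.48 at day 7 (-2.63 ± 0.50, adjusted p = 0.00472). Lcn2, which withholds iron from bacteria, fell by 2.60 ± 0.53 (6.05-fold lower), and Retnlg, a resistin-like gene of neutrophils, by 2.59 ± 0.56. S100a9 and S100a8, the calprotectin genes, chosen after their values were seen, differed by -2.38 and -2.37 and were not called (adjusted p = 0.0522 and 0.062). The riser was Cd177, a surface protein of neutrophils, at 3.57, 3.55, 3.58, 3.66 and 3.41 at day 12, against 1.47, 2.01, 1.62 and 1.57 at day 7 (1.89 ± 0.26, adjusted p = 0.000832). Its day 0 mean of 1.75 was near that of day 7, while those of Ltf, Lcn2 and Retnlg were -5.92, -1.69 and -5.98, and it rose in WT too (1.30, adjusted p = 0.025).

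Among 23 listed inflammatory cytokines and chemokines 22 passed the filter, all were lower at day 12 (median -1.89) and 7 fell (background 1.97%). Besides Ccl4 and Ccl3 these included Tnf, at -1.42, -2.38, -1.16, -2.03 and -2.46 at day 12, against 0.13, 0.14, 0.10 and 0.34 at day 7 (-2.07 ± 0.54, adjusted p = 0.0239). Il1f9, the IL-36 gamma gene, was not well above background on any day 12 array and was at least 1.84-fold lower there. Of 22 tested macrophage and monocyte genes 6 fell and none rose (median -1.11). Marco, a scavenger receptor for bacteria, was at -1.71, -2.92, -1.02, -2.08 and -1.72 at day 12, against 0.58, 0.10, 0.99 and 0.44 at day 7 (-2.41 ± 0.50, adjusted p = 0.00756). Of 18 complement and acute phase genes 5 fell (median -1.05), with Lrg1 at -1.76 ± 0.39 and the complement inhibitor gene Serping1 at -1.18 ± 0.33 beside Lbp and Saa3. Of 25 antimicrobial genes 3 fell and 1, Reg4, rose. Besides Lcn2 and Saa3 the third fall was that of Nos2, the inducible nitric oxide synthase (-1.90 ± 0.55). Matrix proteases gave 2 falls of 11, Mmp3 and Mmp8.

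Above the Card9-/- day 0 mean, the neutrophil list averaged between 2.68 and 3.87 at day 12 and between 4.27 and 4.92 at day 7. The cytokine list lay between 2.20 and 4.06 at day 12 and between 4.68 and 5.06 at day 7, and the macrophage list between 1.58 and 2.31 and between 2.98 and 3.46. No list's days overlapped, and no day 12 array had returned to the day 0 range. Among the day 12 arrays replicate 3 was highest for neutrophil and cytokine genes. Without the arrays with pancreatic transcripts the medians of the 3 lists were -2.03, -1.69 and -1.16, with 0, 1 and 0 falls called. The red blood cell genes, which are no part of these lists, fell on the same arrays (5 of 8 called, background 1.97%, median -2.47). Slc4a1, the band 3 gene, was down by 2.55 ± 0.58. The part of the red blood cell genes in the result was not tested.

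**Figure D4:**
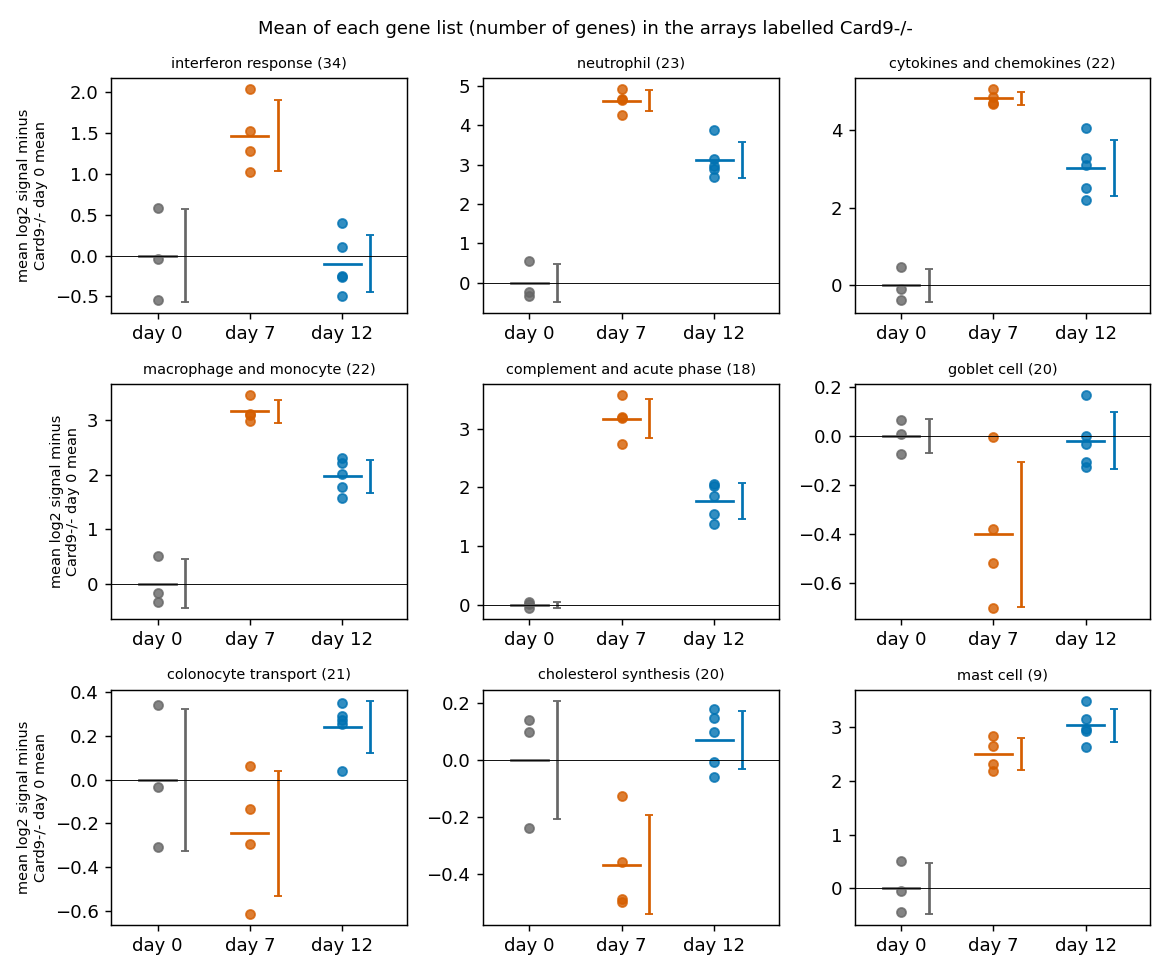
Each point is 1 array labelled Card9-/- and the y axis is the mean log2 signal of a gene list, minus the mean of the 3 day 0 arrays, at day 0, day 7 and day 12. Horizontal lines are means and the bars beside them are ± 1 SD (n = 3, 4 and 5). The interferon list is back in its day 0 range at day 12, while the neutrophil, cytokine, macrophage and complement lists lie between their day 0 and day 7 values.

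Goblet cell genes were among the rises. Of 20 goblet cell genes 9 rose (background 5.73%) and none fell, with a median of 0.42. Ern2, the stress sensor of mucus-making cells, was at 1.68, 2.14, 1.92, 1.97 and 1.95 at day 12, against 0.92, 0.99, 1.17 and 0.82 at day 7 (0.96 ± 0.13 or 1.94-fold, adjusted p = 0.000832). Foxa3, a transcription factor of goblet cells, was at 1.48, 1.58, 1.54, 1.46 and 1.42 at day 12, against 0.63, 0.47, 0.78 and 0.79 at day 7 (0.83 ± 0.12). In both the days were fully apart and the day 12 means of 1.93 and 1.49 were close to the day 0 means of 1.99 and 1.44. Tpsg1, a membrane tryptase, rose by 0.89 ± 0.14 and Creb3l1, a transcription factor that activates secretory genes, by 1.19 ± 0.22. The risers also included Atoh1 (0.92) and Spdef (1.02), the regulators of secretory fate, chosen after their values were seen. The mucus genes themselves were not among them: Muc2, the main mucin (0.23, adjusted p = 0.506), Tff3 (-0.02) and Clca1 (-0.11), also chosen afterwards, did not pass the test. Without the arrays with pancreatic transcripts 17 of 20 genes were higher, the median was 0.56 and 3 were called. In WT 2 of the 20 rose (background 0.365%, median 0.38), among them Tpsg1 (0.81, adjusted p = 0.00842). By limma 10 of the 20 had an unadjusted p under 0.05 in arrays labelled Card9-/- and 9 in WT. Of 16 tuft cell genes, markers of the chemosensory cells of the epithelium, 15 had a negative difference (median -0.41), with 0 called by limma and 4 at an unadjusted p under 0.05. Of 16 enteroendocrine genes, those of the hormone-making cells, none rose and 1 fell.

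Of 22 listed colonocyte transport genes 21 passed the filter, 4 rose (background 5.73%) and none fell (median 0.51). Of 19 tested genes of differentiated enterocytes and lipid handling none rose and 2 fell (background 1.97%). Scnn1b, a subunit of the epithelial sodium channel, was at -0.45, 0.17, 0.19, 0.64 and 0.19 at day 12, against -1.69, -1.80, -0.47 and -1.26 at day 7 (1.45 ± 0.27, adjusted p = 0.0044). Its day 12 mean of 0.15 exceeded the day 0 mean of -1.23, but the day 0 arrays were spread in Hox genes, as given above. Slc12a2, the chloride uptake cotransporter, rose by 0.88 ± 0.20, Kcnn4, a calcium-activated potassium channel, by 1.14 ± 0.27, and the bicarbonate transporter Slc4a4 by 0.99 ± 0.27. The days of Kcnn4 overlapped. Enzymes of cholesterol synthesis were higher for all 20 listed genes (median 0.40), and 7 were called. Fdps, which makes farnesyl diphosphate, was at 5.47, 5.41, 5.10, 5.35 and 5.49 at day 12, against 4.87, 4.98, 4.49 and 4.65 at day 7 (0.62 ± 0.10, adjusted p = 0.00208). Mvd, an enzyme of the mevalonate pathway, rose by 0.76 ± 0.16 and Cyp51, a sterol demethylase, by 0.59 ± 0.12. With only the 9 arrays in the fit, 1 of these cholesterol genes was called. Of 27 tested xenobiotic metabolism genes 3 rose (background 5.73%), the glutathione transferases Gstm3 (1.45 ± 0.25) and Gstm1 (1.24 ± 0.28) and the sulfotransferase Sult1a1 (1.03 ± 0.24). Sox9, a crypt transcription factor, was the 1 gene called among 17 stem cell and Wnt genes (0.72 ± 0.11, adjusted p = 0.00152), a share near the 5.73% of all genes tested that rose.

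**Figure D5:**
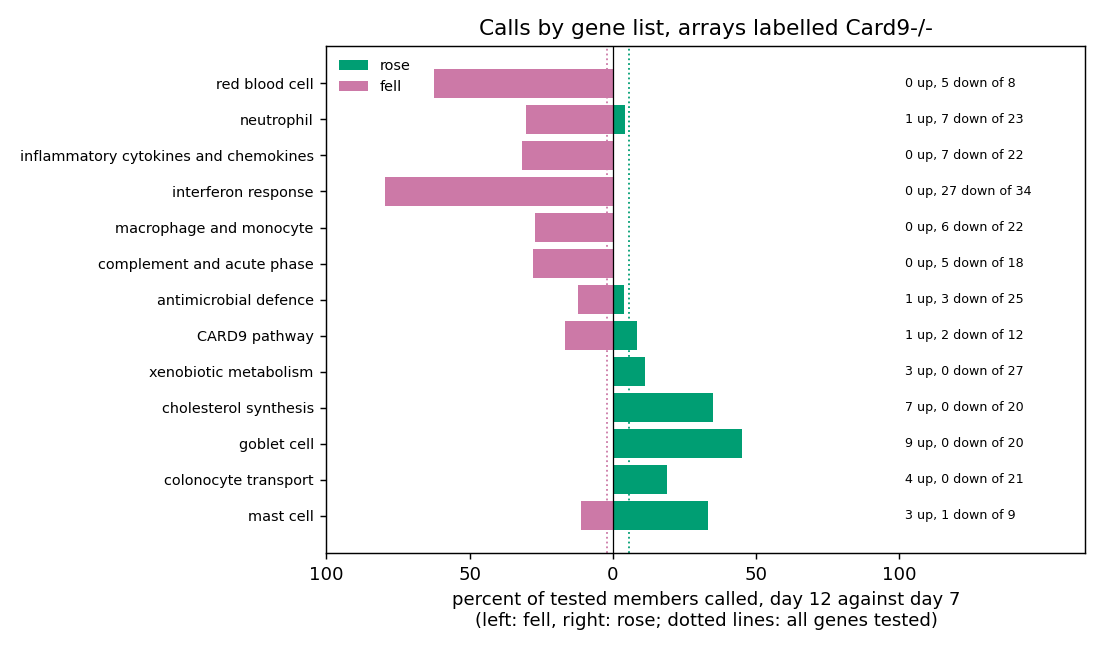
The x axis is the percentage of the tested members of each gene list that fell (left, pink) or rose (right, green) in arrays labelled Card9-/-, day 12 against day 7, with the counts at the right and dotted lines at the shares over all genes tested (1.97% fell, 5.73% rose). The 13 lists with at least 3 calls are drawn, chosen after the calls were seen, with 27 of 34 interferon genes falling and 9 of 20 goblet cell genes rising.

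Mast cell genes were among the rises. Of 11 listed genes 9 passed the filter, 3 rose (background 5.73%) and 1 fell (background 1.97%), with a median of 1.00. Kit, the stem cell factor receptor, which pacemaker cells of the gut wall also carry, rose by 1.00 ± 0.21. Mcpt4, a protease of connective tissue mast cells, was at 2.01, 2.11, 2.98, 2.31 and 2.37 at day 12, against 0.85, 0.98, 0.46 and 1.50 at day 7 (1.41 ± 0.32, adjusted p = 0.0119). Mcpt1, a protease of mucosal mast cells, was at 1.69, 1.94, 2.74, 2.01 and 2.12 at day 12, against 0.41, 0.66, -0.07 and 1.12 at day 7 (1.57 ± 0.42, adjusted p = 0.0273). The days did not overlap for either, and the day 0 means were lower still, at -2.33 and -2.63. The fall was that of Hdc, the histamine-making enzyme, which the neutrophil list also holds (-2.40 ± 0.66). Mcpt4 and Mcpt1 rose in WT as well. Without the arrays with pancreatic transcripts 8 of 9 genes were higher and none was called.

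For the pathway of CARD9, 12 genes were tested, of which 1 rose and 2 fell, beside 5.73% and 1.97% of all genes tested. Clec7a, the β-glucan receptor Dectin-1, was at -0.25, -0.02, 0.13, -0.07 and 0.15 at day 12, against 1.58, 1.82, 1.44 and 2.00 at day 7 (-1.72 ± 0.44, adjusted p = 0.02). Fcer1g, the signalling chain of several such receptors, was at 1.58, 1.14, 1.78, 1.77 and 1.78 at day 12, against 3.08, 2.91, 3.04 and 3.20 at day 7 (-1.45 ± 0.36, adjusted p = 0.0182). Both genes are also expressed by macrophages in general. The macrophage list, which holds Clec7a itself, was lower on the same arrays, and its part in these falls was not tested. Downstream of the receptors, Bcl10 rose by 0.35 ± 0.10 (adjusted p = 0.0286), while Malt1 differed by 0.02 ± 0.11 and the kinase gene Syk by 0.06 ± 0.20. The receptors Clec4e, Clec4n and Clec4d differed by -2.40, -0.98 and -2.09 and were not called (adjusted p = 0.121, 0.177 and 0.0581).

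The title of the series names tryptophan metabolism and the aryl hydrocarbon receptor (AhR), a sensor of tryptophan products, and IL-22 is a cytokine of that axis which supports epithelial repair. Of 14 listed IL-22 and IL-17 genes 11 passed the filter. Of these 1 was called (background 5.73% for rises), Il22ra1, the epithelial IL-22 receptor chain, which rose by 0.55 ± 0.15 (adjusted p = 0.0321). Il22 itself was at -5.06, -5.38, -2.94, -5.23 and -4.85 at day 12, against -3.94, -2.03, -2.63 and -3.40 at day 7. It was well above background on 1 of 5 day 12 arrays and 4 of 4 day 7 arrays, and the difference of -1.69 ± 0.81 was not called (adjusted p = 0.218). Il17a differed by -1.07 ± 0.73 (adjusted p = 0.424). Of 9 tested AhR target genes 1 rose (background 5.73%), Nqo1, a quinone reductase that NRF2 also controls. Nqo1 was at 0.62, 0.05, 0.38, 0.52 and 0.50 at day 12, against -0.10, -0.86, -2.16 and -0.94 at day 7 (1.43 ± 0.34, adjusted p = 0.0139). The canonical target Cyp1a1 was well above background on 1 array of each day and differed by 0.01 ± 0.54, and Ahr by 0.15 ± 0.16. Among 13 tested tryptophan metabolism genes 1 fell (background 1.97%) and 1 rose (background 5.73%). Ido1, which starts the kynurenine pathway and is induced by interferon gamma, fell by 2.68 ± 0.73 (adjusted p = 0.0285). Ddc, which makes serotonin and tryptamine, rose by 0.90 ± 0.21.

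The circadian clock genes were looked at since they moved in WT between these days. Of 19 tested genes 1 was called in the arrays labelled Card9-/-, the nuclear receptor gene Rora (-1.01 ± 0.29, adjusted p = 0.0356), against 6 in WT, beside 7.7% of all genes tested in the arrays labelled Card9-/- and 0.487% in WT. Dbp, an output gene of the clock, was at 4.20, 4.09, 2.95, 3.32 and 3.94 at day 12, against 2.80, 4.80, 5.34 and 4.53 at day 7. These values overlap, with a difference of -0.67 ± 0.48 (adjusted p = 0.456), and in WT the difference was -2.95 (adjusted p = 0.00669). No clock gene was called in the test of the difference between genotypes.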

How the data were processed

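Total RNA (100 ng, integrity number above 7) of single colons was labelled with Cy3 and hybridised to 1-colour Agilent arrays, per the labels' protocols. Spot intensity values on a linear scale were made with Agilent Feature Extraction 10.7.3.1, per the submitters' processing notes, and the processed intensity that the authors deposited was corrected for spatial and multiplicative trends across the array with the global background correction off, per the file headers. The log2 values of the deposited series table (33418 probes, column medians 7.906 to 7.911, how they were normalized not given in the sources used here) served as an alternative. They correlated with the log2 processed intensity of the same arrays at 0.9832 to 0.9915.

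Each array's log2 processed intensity was then set relative to the 75th percentile over its 59305 non-control spots. Probes well above background on at least 3 of 25 arrays were kept (36283 of 55681), and the brightest probe stood for a gene. Of the probes, 27656 were named by RefSeq accession and 3722 by symbol or synonym (GRCm38.p6), and 24303 kept the file's name. Probes of 1 gene were called in opposite directions. The arrays of 1 group are of different mice. Alternatives were normexp (offset 50), quantile normalization, other filters, each probe alone, slide and replicate blocks, the 9 arrays alone, and arrays left out; the setting without pancreatic transcripts also leaves out WT day 12 replicate 5, whose acinar mean was raised. Positions are those of the files (mm9). The limma 3.58.1 model (R 4.3.3) held the means of all 6 groups, with Benjamini-Hochberg adjustment per contrast. On simulated data (25206 genes, 200 changed) 44.5% of 2-fold and 78.5% of 4-fold changes were called, with 8 and 6 false calls. Where a probe was dim on all arrays of a day, the fold is a bound ("at least"), with the day's dim arrays set to the higher of the probe's signal and the lowest signal well above background. The number of arrays limits the precision.

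The genes named are Card9; the 15 top rises and the 15 top falls among called genes with a symbol, bright on every array of 1 day, without overlap between days and outside the acinar list, up to 4 members of each of 48 gene lists with the smallest p, all members of the clock, IL-22 and IL-17, AhR and CARD9 lists, and genes called between genotypes. Members and lists were chosen with earlier results of these data known. Figures used matplotlib 3.10.9. Some genes and a motif are not reported here, and 1 interferon gene is left out of the plot.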

Additional observations from a re-analysis of the deposited data

Results flagged for a closer look

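In 2 genes the change from day 7 to day 12 differed between arrays labelled Card9-/- and WT by a test of the difference itself. For Ifit1 the Card9-/- change minus the WT change was -2.26 ± 0.34, and for Oasl1 it was -1.29 ± 0.19 (limma, adjusted p = 0.0202 for both).

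In the other cases 1 array lay far from the rest of its group, by Dixon's test, which marks about 1 in 20 groups by chance. At day 12, replicate 1 was high for the pancreatic acinar mean (7.67), Zbp1 (3.11) and Slc4a1 (-2.36). Replicate 3 was high for Pfkfb3 (1.41) and Il22 (-2.94), replicate 5 for Oasl1 (3.87), and replicate 4 was low for Bhmt (-7.21). At day 7, replicate 1 was high for Agr3 (-4.55) and low for Il22ra1 (-0.19) and Il17a (-4.18). Replicate 2 was low for Gng13 (-5.82). Replicate 3 was low for Kcne2 (-5.69) and Fzd9 (-2.76) and high for Rora (-0.53). Replicate 4 was low for Cdx1 (6.48) and high for Tnf (0.34). Day 12 replicate 1 and day 7 replicates 2 and 3 are the arrays with pancreatic transcripts.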

How the results depend on the processing

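No called gene among those named changed sign under the alternatives run. For genes whose days did not overlap, leaving out arrays could not change it. Of the uncalled ones in the text, Cyp1a1 (0.01), Malt1 (0.02) and Syk (0.06) changed sign under some, down to -0.50, -0.02 and -0.04, and none was called. Beside 1960 calls (1458 up), there were 1278 (933 up) with no filter on dim probes, 685 (299 up) with the 9 arrays alone, and 247 (203 up, 44 down) without the arrays with pancreatic transcripts, where gene lists held 15 calls in place of 114. Calls numbered 1894 with normexp background correction, 1456 with quantile normalization, 1592 in the deposited log2 values and 2204 with the slide as a block. Leaving out 1 array gave 1033 (without day 7 replicate 2) to 2260 calls (without day 7 replicate 1), 763 to 1676 up and 254 to 584 down, and 63 to 120 calls in lists. Without day 12 replicate 2 there were 1160 calls, without day 12 replicate 5 1212, and without day 7 replicate 4 1198. For the difference between genotypes, 2 genes called became 0 with normexp, quantile normalization, the replicate block and without the arrays with pancreatic transcripts, 11 with the filter of 13 arrays, and 0 to 7 with 1 array left out. The cause was not tested. With the replicate number as a block 1700 genes were called, 79.3% of the 1960 among them. After each gene's group mean was subtracted, day 12 and day 7 arrays of the same number correlated at -0.38, 0.04, 0.02 and 0.14. The numbers were therefore not taken to pair the mice. Dim probes (dimmer than background on all arrays of a day) give only bounds, and 4 or 5 arrays per day limit the precision.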

Other observations

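Genes of dividing cells had mostly negative differences, and none passed the test. All 22 mitosis genes had a negative difference (median -0.30) and 21 of 22 DNA replication genes did (median -0.52). By limma 0 of either list were called, and 0 and 6 genes had an unadjusted p under 0.05. Without the arrays with pancreatic transcripts the medians were -0.86 and -0.95, with 0 mitosis genes and 1 DNA replication gene called, that one lower at day 12. For mitosis the list mean lay between -1.36 and -0.63 relative to the Card9-/- day 0 mean on the 5 day 12 arrays, below the day 0 range of -0.15 to 0.24, while the day 7 arrays were spread over -2.04 to 0.55. Day 7 replicate 3, an array with pancreatic transcripts, was the lowest. Cenpe, a motor protein of chromosome alignment, was at 2.05, 1.84, 1.72, 1.93 and 1.35 at day 12, against 3.16, 3.02, 0.77 and 1.96 at day 7. The difference between Card9-/- and WT in the change over these days had an unadjusted p under 0.05 for 17 of the 22 DNA replication genes (77.3%, beside 7.71% of all genes tested), with 0 called after adjustment. In WT the median DNA replication gene differed by 0.40.

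Other lists held few calls, beside 1.97% of all genes tested that fell and 5.73% that rose. Tac1, the substance P gene in the enteroendocrine list, fell by 1.78 ± 0.32 (adjusted p = 0.00345), the 1 call among 16 genes. Of 10 tested eosinophil and type 2 genes 2 fell, Ccl24, an eosinophil attractant that was not well above background on any day 12 array (at least 2.46-fold lower), and Siglecf (-1.14 ± 0.33). Il2ra, the T cell activation receptor, fell by 1.92 ± 0.48. Of 20 glycolysis and hypoxia genes 2 fell, the glycolysis regulator Pfkfb3 (-1.72 ± 0.38) and Bnip3 (-0.62 ± 0.18). Slc51b, a bile acid exporter subunit, fell by 1.20 ± 0.26. Its day 12 mean of 2.01 was further from the day 0 mean of 3.58 than its day 7 mean of 3.21, but the day 0 arrays were spread in Hox genes. All 17 endothelial and adhesion genes were lower (median -0.73) and 23 of 24 matrix and fibroblast genes were (median -0.51), with 0 called by limma in each and 6 and 4 at an unadjusted p under 0.05.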
